A study of Mus musculus with 7 samples.

Results

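A set of 47 genes encodes the proteins that mark, license and unwind replication origins and that copy and repackage DNA at the fork. They were chosen by symbol from a list of origin, helicase, polymerase, clamp, loader and chaperone genes. The rule uses no measured value, although the list was drawn up with earlier results of these data known, and all 47 were found among the 39179 genes of the replicated table and in the table of the unnumbered pair. Their messenger RNA was measured in regulatory T cells, a CD4 lineage defined by Foxp3 that holds other lymphocytes in check, sorted as CD4+TCRb+CD25hi Foxp3+ cells from lymph node. The replicated comparison had 3 Id2/Id3 double-knockout libraries (dKO, Id2fl/flId3fl/flFoxp3cre) and 2 control libraries (Id2fl/+Id3fl/+Foxp3cre). Mice of every group were C57BL/6, 3 weeks old and carried a Cre recombinase expressed from Foxp3, so control cells could also lose 1 allele of each gene. Id2 and Id3 encode inhibitors of the E protein transcription factors. An additional dKO library and an additional control library, both without a replicate number, formed a single pair whose genotype tags are the reverse of titles and source names. These are called the library labelled dKO and the library labelled control. The labels do not say whether each library came from its own animal, so p-values measure only how far libraries differ, and that spread may be technical.

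Replication is prepared in G1 phase, when the origin recognition complex (ORC), Cdc6 and Cdt1 load rings of the MCM helicase onto DNA, and it starts in S phase, when kinases recruit Cdc45 and the GINS complex to those rings. DNA polymerase alpha with primase then lays primers, polymerases delta and epsilon extend them on the clamp PCNA, and Fen1 and Lig1 join the fragments of the lagging strand. Most of these genes are transcribed with the cell cycle under E2F factors, and naive T cells, which are quiescent, switch them on when they enter division.

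The 47 genes were mostly higher in dKO regulatory T cells. At an adjusted p under 0.05 in the authors' deposited table, 21 of 47 (44.7%) rose, 0 fell and 26 did not pass. Among all 31641 genes with a p, 3.38% were called higher and 3.18% lower by the same rule in the authors' deposited table, and among 9676 genes whose mean was at least 250, as it was for all 47, 8.09% were called higher and 6.87% lower. The log2 ratio of dKO over control was above 0 for 45 of 47 genes, against 51.6% of the 9676 genes in the authors' deposited table. Its median was 0.435, with a range of -0.04 (Pole2) to 0.90 (Ccne2), and the median over the 9676 genes was 0.01, per the authors' deposited table. For 43 of the 47 genes the ratio was above 0.19, the upper quartile of those 9676 genes. At an unadjusted p under 0.05 in the authors' deposited table, 32 were higher and 0 lower, against 15.4% higher and 14.2% lower among the 9676 genes. The deposited values are group means with no SD. The file header calls them raw counts, but they are fractional and step like reads divided by a size factor in each library, so they are called scaled counts here. Summed over the 47 genes they came to 0.429% of all scaled counts in dKO and 0.321% in control. In bulk samples such as these, a different share of dividing cells and a different amount of RNA per cell cannot be told apart.

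**Figure D1:**
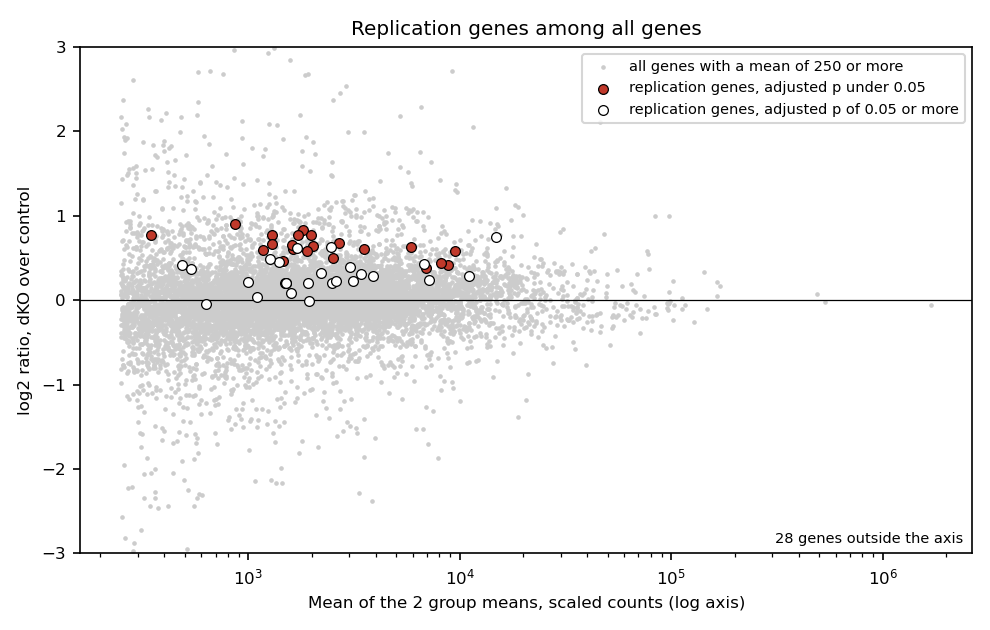
Log2 ratio of dKO over control (vertical axis) against the mean scaled count of both groups (horizontal axis, log scale) for genes with a mean of at least 250 (grey), with the 47 replication genes drawn over them, filled where the adjusted p was under 0.05. Of the 47 genes, 45 lie above 0 and none beyond 0.90, inside the range of the grey points; 28 genes outside log2 values of -3 to 3 are not drawn.

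Of the targeted genes, Id2 had 61.1 scaled counts in dKO and 783 in control (log2 -3.68, adjusted p 1.48e-08 in the authors' deposited table). Id3 had 891 in dKO and 1376 in control (adjusted p 0.209 in the authors' deposited table), and the floxed exons are not named in the labels. In the pair, Id2 was at 9.69 FPKM (fragments per kilobase and depth) in the library labelled dKO and 18.6 in the library labelled control. Id3 was at 221 FPKM in the library labelled dKO and 159.8 in the library labelled control, so it did not go the way of the label. Mki67, a marker of dividing cells, moved with the replication genes: it had 25001 scaled counts in dKO and 11467 in control (log2 1.12, adjusted p 0.0495 in the authors' deposited table). Its part in the results was not tested. Foxp3 had 10942 scaled counts in dKO and 13481 in control (adjusted p 0.188 in the authors' deposited table), and the 9 markers of regulatory and CD4 T cells summed to 191013 in dKO and 171092 in control. Of these 9, Ctla4 rose, with 26706 in dKO and 13258 in control (log2 1.01, adjusted p 4.71e-05 in the authors' deposited table), and Ikzf2, which did not pass, had 18296 in dKO and 22751 in control. Of the genes listed as markers of other cell types, those with the most scaled counts were Irf4, Prdm1, Cd79b and Cd8b1. The 7 B cell markers summed to 1355 in dKO and 1163 in control, mostly Cd79b, with Ms4a1 at 1.47 in dKO and 1.76 in control. The 2 CD8 T cell markers summed to 714 in dKO and 680 in control, and the 3 NK cell markers to 184 in dKO and 161 in control. The 8 myeloid markers summed to 150.03 in dKO, with S100a9 at 0, and to 145 in control, with S100a8 at 0. The 6 dendritic cell markers summed to 112 in dKO and 168 in control, where Clec9a was at 0, and 1 of them, Xcr1, fell. The 5 genes listed as plasma cell markers summed to 11603 in dKO, where Tnfrsf17 was at 0, and 7864 in control. Irf4 and Prdm1 made up most of both sums, and Prdm1 rose. Irf4 alone had 9389 in dKO and 6590 in control, of the order of Foxp3. Which cells expressed these 2 genes was not tested, so the sums are not a measure of plasma cells. Sdc1 had 28.0 in dKO and 23.4 in control, Igj had 133 in dKO and 70.3 in control, and neither passed. The part of these cell types in the results was not tested.

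Promoters of 8 of these genes, some that rose and some that did not pass, are printed to show letters read by E2F factors. They do not stand for all 47: each holds a match except Cdc45, which rose, against 39.5% of the 38 promoters searched. Each is 170 bases before to 30 after the annotated start, from the RefSeq table of GRCm38.p6, read 5′ to 3′ on the strand of the gene. The positions are Orc1 chr4:108579284-108579483 (plus strand), Cdc6 chr11:98907981-98908180 (plus strand), Mcm5 chr8:75109339-75109538 (plus strand), Orc3 chr4:34614913-34615112 (minus strand), Mcm6 chr1:128359676-128359875 (minus strand), Gins3 chr8:95633389-95633588 (plus strand), Rfc3 chr5:151651179-151651378 (minus strand), Cdc45 chr16:18811943-18812142 (minus strand). Capitals mark a match to 1 of the 4 letter strings searched on both strands (TTTCCCGC, TTTGGCGC, TTTCGCGC, TTTGCCGC). The Mcm5 run and the first Mcm6 run each hold a pair of overlapping matches. Cdc45 has no match in the window.
Orc1: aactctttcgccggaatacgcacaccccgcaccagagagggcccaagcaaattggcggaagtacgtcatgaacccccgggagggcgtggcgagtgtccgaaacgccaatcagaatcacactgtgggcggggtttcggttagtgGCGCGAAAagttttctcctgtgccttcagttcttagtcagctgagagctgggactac
Cdc6: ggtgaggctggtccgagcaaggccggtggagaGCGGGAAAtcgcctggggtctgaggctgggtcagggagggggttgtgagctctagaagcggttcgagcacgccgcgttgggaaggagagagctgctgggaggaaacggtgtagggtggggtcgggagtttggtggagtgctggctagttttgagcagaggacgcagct
Mcm5: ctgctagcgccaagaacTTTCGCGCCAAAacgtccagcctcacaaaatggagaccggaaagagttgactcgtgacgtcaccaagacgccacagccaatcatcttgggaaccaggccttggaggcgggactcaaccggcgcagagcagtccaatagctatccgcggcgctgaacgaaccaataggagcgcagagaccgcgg
Orc3: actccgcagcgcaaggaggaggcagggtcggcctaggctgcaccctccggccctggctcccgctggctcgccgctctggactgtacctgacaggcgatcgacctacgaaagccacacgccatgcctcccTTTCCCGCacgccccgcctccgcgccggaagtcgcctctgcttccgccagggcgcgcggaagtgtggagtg
Mcm6: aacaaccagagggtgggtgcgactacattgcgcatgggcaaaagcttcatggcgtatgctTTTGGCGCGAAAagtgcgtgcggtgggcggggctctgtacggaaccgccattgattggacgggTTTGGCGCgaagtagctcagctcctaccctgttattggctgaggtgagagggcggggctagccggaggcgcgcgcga
Gins3: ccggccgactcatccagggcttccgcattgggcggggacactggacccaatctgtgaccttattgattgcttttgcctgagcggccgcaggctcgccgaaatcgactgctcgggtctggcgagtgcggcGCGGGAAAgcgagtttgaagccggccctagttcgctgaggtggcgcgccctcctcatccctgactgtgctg
Rfc3: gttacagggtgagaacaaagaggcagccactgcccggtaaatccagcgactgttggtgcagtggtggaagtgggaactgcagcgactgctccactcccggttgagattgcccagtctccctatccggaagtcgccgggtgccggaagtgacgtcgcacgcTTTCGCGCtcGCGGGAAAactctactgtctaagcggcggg
Cdc45: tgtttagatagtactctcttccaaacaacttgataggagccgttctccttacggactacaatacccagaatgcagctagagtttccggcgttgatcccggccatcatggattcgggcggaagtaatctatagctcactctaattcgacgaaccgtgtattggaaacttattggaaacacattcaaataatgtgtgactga

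Of the 47 genes, 38 had a promoter in the RefSeq table (GRCm38.p6, 250 bases before to 50 after the start). At least 1 of the 4 strings was found in 15 of these 38 promoters (39.5%), in 15 of 39 promoters of other replication genes (38.5%), in 5.21% of the 7181 promoters of genes with a mean of at least 250, and in 2.6% of all 27025 promoters. Among genes that rose the share was 6 of 16 (37.5%), and among genes that did not pass it was 9 of 22 (40.9%). The difference between these shares was not tested. In Orc1 the match lies at bases -27 to -20 (the start being base 0), and in Cdc6 at -138 to -131. These positions count from the RefSeq start. The counted Cdc6 gene begins at base 98907801, before the promoter searched, so its match lies inside that gene. The promoters searched for Lig1 and Mcm7 also lie inside the counted genes. In Orc3, whose level differed little between the groups, a match lies at -41 to -34. E protein sites were searched as CAGCTG and CAGGTG, on both strands, and in none of the 38 promoters did such a match overlap an E2F string. They were found in 26.3% of the 38 promoters, 32.4% of promoters of genes with a mean of at least 250 and 35.9% of all promoters. A match is a run of letters and was not measured as a bound site.

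**Figure D2:**
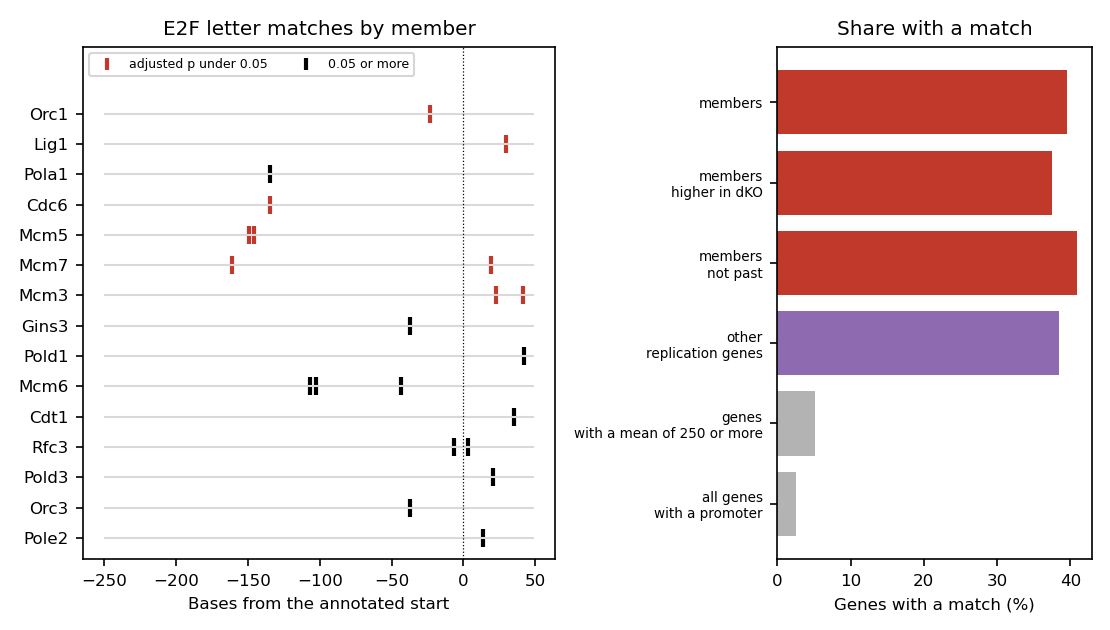
Left, position of each of the 21 E2F letter matches relative to the RefSeq start (bases, horizontal axis) in the 15 promoters that hold one, coloured by whether the gene passed the test. Right, percent of promoters with a match in genes that rose, genes that did not pass and the comparison sets. Of the 21 matches, 11 begin between 60 bases before and 30 after the start. The genes that rose and those that did not pass stand at 37.5% and 40.9%, against 5.21% of genes with a mean of at least 250.

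Within ORC, the 6-subunit complex that binds origins, Orc1 rose and the other 5 subunits did not pass. Reads in each control library could be recovered for 30 of the 47 genes, and their scaled counts are given with the deeper control library first; the dKO libraries can be given only as a mean. Orc1 (ENSMUSG00000028587, GRCm38 chromosome 4, 108579423 to 108614833), the largest subunit and an ATPase, had a mean of 439 scaled counts in dKO, against 239 and 276 in the 2 control libraries (log2 0.77, adjusted p 0.0004 in the authors' deposited table). The dKO mean lay above both control libraries. Orc6 had 1610.4 in dKO, against 1116 and 1246 in the control libraries (log2 0.45, adjusted p 0.107 in the authors' deposited table). Orc2 had 1590.0 in dKO, against 1317 and 1438 (log2 0.21, adjusted p 0.707 in the authors' deposited table). Orc4, Orc5 and Orc3, which belong to the core of the complex, differed least. Orc4 had 1642 in dKO and 1548 in control (log2 0.08), Orc5 had 1116 in dKO and 1085 in control (log2 0.04), and both adjusted p-values were 1 in the authors' deposited table. Orc3 had 1922 in dKO, against 1884 and 1993 in the control libraries, so its dKO mean lay between them (log2 -0.01, adjusted p 1 in the authors' deposited table).

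Of the licensing factors, Cdc6 and Gmnn rose and Cdt1 did not pass. Cdc6, the ATPase that loads MCM rings together with ORC, had 1414 scaled counts in dKO, against 931 and 947 in the control libraries (log2 0.59, adjusted p 0.0027 in the authors' deposited table). Gmnn encodes geminin, which binds Cdt1 and blocks licensing outside G1, and it had 1961 in dKO, against 1241 and 1335 in the control libraries (log2 0.61, adjusted p 0.0014 in the authors' deposited table). For both genes the control libraries lay close together and the dKO mean lay above them. Cdt1, which brings MCM rings to ORC, had 2659 in dKO and 2300.2 in control (log2 0.21, adjusted p 0.641 in the authors' deposited table).

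All 6 MCM subunits had a higher mean in dKO, and 4 rose. Mcm5 (ENSMUSG00000005410, GRCm38 chromosome 8, 75109528 to 75128439) had 11344 scaled counts in dKO and 7581 in control (log2 0.58, adjusted p 0.0004 in the authors' deposited table). Mcm7 had 9343 in dKO and 6911 in control (log2 0.435, adjusted p 0.016 in the authors' deposited table), and Mcm3 had 10110.3 in dKO and 7564 in control (log2 0.42, adjusted p 0.0229 in the authors' deposited table). Mcm4 rose by a log2 of 0.39, with an adjusted p of 0.0493 close to the threshold in the authors' deposited table. The 2 subunits that did not pass were Mcm2, with 7792 in dKO and 5795 in control (log2 0.43, adjusted p 0.0602 in the authors' deposited table), and Mcm6, with 12193 in dKO and 10019 in control (log2 0.28, adjusted p 0.276 in the authors' deposited table). Mcm2 thus had a ratio like that of Mcm7 on the other side of the threshold. Reads of these 6 genes per control library could not be recovered, because several pairs of read numbers give the same mean at this depth.

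Of the 6 genes that turn the loaded ring into a moving helicase, 3 rose. Cdc45 (ENSMUSG00000000028, chromosome 16, 18780447 to 18811987), the ring's partner in the active helicase, had the smallest adjusted p of the 47 genes. Its mean was 2322 scaled counts in dKO, against 1295 and 1324 in the control libraries (log2 0.83, adjusted p 3.11e-07 in the authors' deposited table). Mcm10, a scaffold needed for origin firing, had 1627 in dKO, against 924 and 976 in the control libraries (log2 0.78, adjusted p 0.0046 in the authors' deposited table). The 4 GINS subunits work as 1 complex, and 1 of them rose. Gins2 had 3322 in dKO, against 2169 and 1971 in the control libraries (log2 0.68, adjusted p 8.18e-05 in the authors' deposited table). Gins2 shares 2758 bases with its overlapping neighbour Gse1, which had 5921 scaled counts in dKO and 2816 in control, and reads of the 2 genes may be split between them. Gins1 had 556 in dKO, against 373 and 463 in the control libraries (log2 0.41, adjusted p 0.113 in the authors' deposited table). Gins3 had 603 in dKO, against 438 and 493 (log2 0.37, adjusted p 0.465 in the authors' deposited table). Gins4 had 1618 in dKO, against 1448 and 1370.4 (log2 0.20, adjusted p 0.772 in the authors' deposited table). The dKO mean was above both control libraries for each of these 3 genes, none of which passed the test.

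Among the S phase kinase genes, both E cyclins and Dbf4 rose. Cyclin E activates Cdk2 at the entry to S phase. Ccne1 (ENSMUSG00000002068, chromosome 7, 38097984 to 38107534) had 2174 scaled counts in dKO, against 1256 and 1287 in the control libraries (log2 0.77, adjusted p 2.43e-06 in the authors' deposited table). Ccne2 had 1127 in dKO, against 646 and 564 in the control libraries (log2 0.90, adjusted p 0.0002 in the authors' deposited table), the highest ratio of the 47 genes. Dbf4, the activating subunit of the kinase Cdc7, had 2470.0 in dKO, against 1773 and 1393 in the control libraries (log2 0.64, adjusted p 0.0123 in the authors' deposited table). The Dbf4 control libraries differed more than those of most genes, and the dKO mean was above both. Cdc7 itself had 1476 in dKO, against 1022 and 1085 (log2 0.49, adjusted p 0.214 in the authors' deposited table).

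Both primase subunits rose, while the polymerases that extend the primers did not pass. Prim1, the catalytic primase subunit, had 2272 scaled counts in dKO, against 1486 and 1541 in the control libraries (log2 0.59, adjusted p 0.0008 in the authors' deposited table). Prim2, its regulatory partner, had 1584 in dKO, against 978 and 1024 (log2 0.66, adjusted p 0.0002 in the authors' deposited table). Pola1, the catalytic subunit of polymerase alpha, had 2051 in dKO, against 1339.5 and 1332 in the control libraries, which were nearly equal (log2 0.62, adjusted p 0.232 in the authors' deposited table). Pola1 thus had a ratio like that of Prim1 without passing; the dKO libraries are not separate in the deposited means, so their spread is not shown. Pola2, the accessory subunit, had 2446 in dKO, against 1816 and 2085 (log2 0.33, adjusted p 0.155 in the authors' deposited table).

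None of the 5 genes of polymerases delta and epsilon passed, and 2 of them, Pold1 and Pole, had an unadjusted p under 0.05 in the authors' deposited table. Pole, the catalytic subunit of the leading-strand polymerase, had 2990.0 scaled counts in dKO and 1928 in control (log2 0.63, adjusted p 0.261 in the authors' deposited table). Pole2, its second subunit, had 624 in dKO, against 644 and 639 in the control libraries, so its dKO mean was below both (log2 -0.04, adjusted p 1 in the authors' deposited table). The 2 subunits of 1 enzyme thus had unlike ratios, and their difference was not tested. Pold1, the catalytic subunit of polymerase delta, had 3760.0 in dKO and 3038 in control (log2 0.31, adjusted p 0.193 in the authors' deposited table). Pold2 had 2797 in dKO and 2397 in control (log2 0.22, adjusted p 0.577 in the authors' deposited table), and Pold3 had 2048 in dKO, against 1769 and 1796 in the control libraries (log2 0.20, adjusted p 0.741 in the authors' deposited table).

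PCNA is the ring that holds the polymerases on DNA, and the Rfc genes encode the loader that opens it. Pcna (ENSMUSG00000027342, chromosome 2, 132249162 to 132253314) had the most scaled counts per kilobase of exon of the 47 genes, 7754 in dKO and 4632 in control. Its scaled counts were 18609.5 in dKO and 11116 in control (log2 0.74, adjusted p 0.409, raw p 0.0579 in the authors' deposited table). It did not pass, although only 6 of the 47 genes had a higher ratio. A near-identical copy, Pcna-ps2 (99.2% identity over 781 bases), had 3052 scaled counts in dKO and 3574 in control, and with the copy added the log2 ratio of Pcna was 0.56, so its value is uncertain. Of the 5 loader subunits, Rfc4 and Rfc5 rose. Rfc4 had 1959 in dKO, against 1228 and 1260 in the control libraries (log2 0.66, adjusted p 0.0007 in the authors' deposited table). Rfc5 had 2960 in dKO, against 2021 and 2171 in the control libraries (log2 0.50, adjusted p 0.0059 in the authors' deposited table). Rfc1, the large subunit, had 3391 in dKO and 2896 in control (log2 0.23, adjusted p 0.737 in the authors' deposited table). Rfc2 had 4293 in dKO and 3507 in control (log2 0.29, adjusted p 0.237 in the authors' deposited table). Rfc3 had 1616 in dKO, against 1479 and 1334 in the control libraries (log2 0.20, adjusted p 0.787 in the authors' deposited table). Loader subunits act in a fixed stoichiometry, and here the ratios of their messenger RNA ran between 0.20 and 0.66. The differences between these ratios were not tested.

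The 3 RPA genes, which encode the single-strand binding complex, did not pass. Rpa2 came nearest, with 3413 scaled counts in dKO and 2609 in control (log2 0.39, adjusted p 0.054 in the authors' deposited table). Rpa1, the large subunit, had 7770 in dKO and 6595 in control (log2 0.24, adjusted p 0.471 in the authors' deposited table), and Rpa3 had 1068 in dKO, against 910 and 936 in the control libraries (log2 0.21, adjusted p 0.753 in the authors' deposited table).

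Fen1 and Lig1, which finish lagging-strand fragments, and both CAF-1 genes of the list rose. Fen1, the flap endonuclease that trims lagging-strand fragments, had 4228 scaled counts in dKO and 2786 in control (log2 0.60, adjusted p 0.0003 in the authors' deposited table). Lig1, the ligase that joins them, had 7116 in dKO and 4593 in control (log2 0.63, adjusted p 0.0003 in the authors' deposited table). Chaf1a (ENSMUSG00000002835, chromosome 17, 56040416 to 56068026), the large subunit of the histone chaperone CAF-1, had 2504 in dKO, against 1351 and 1577 in the control libraries (log2 0.77, adjusted p 1.46e-06 in the authors' deposited table). Chaf1a shares 1285 bases with its overlapping neighbour Ubxn6, which had 2751 in dKO and 3105 in control. Shared exons of 474 bases also link Ccne2 to Ints8, of 499 bases Rfc5 to Wsb2 and of 1911 bases Fen1 to Gm10143. Among the ORC genes, shared stretches of 686 bases link Orc2 to Nif3l1 and of 446 bases Orc4 to Acvr2a. The values of all these genes are uncertain to that extent. Chaf1b, the middle subunit of CAF-1, had 1699 in dKO, against 1063 and 1397 in the control libraries (log2 0.47, adjusted p 0.0144 in the authors' deposited table). Its control libraries were the farthest apart of the 30 genes, and its ratio was 0.68 against the deeper control library alone and 0.28 against the other.

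**Figure D3:**
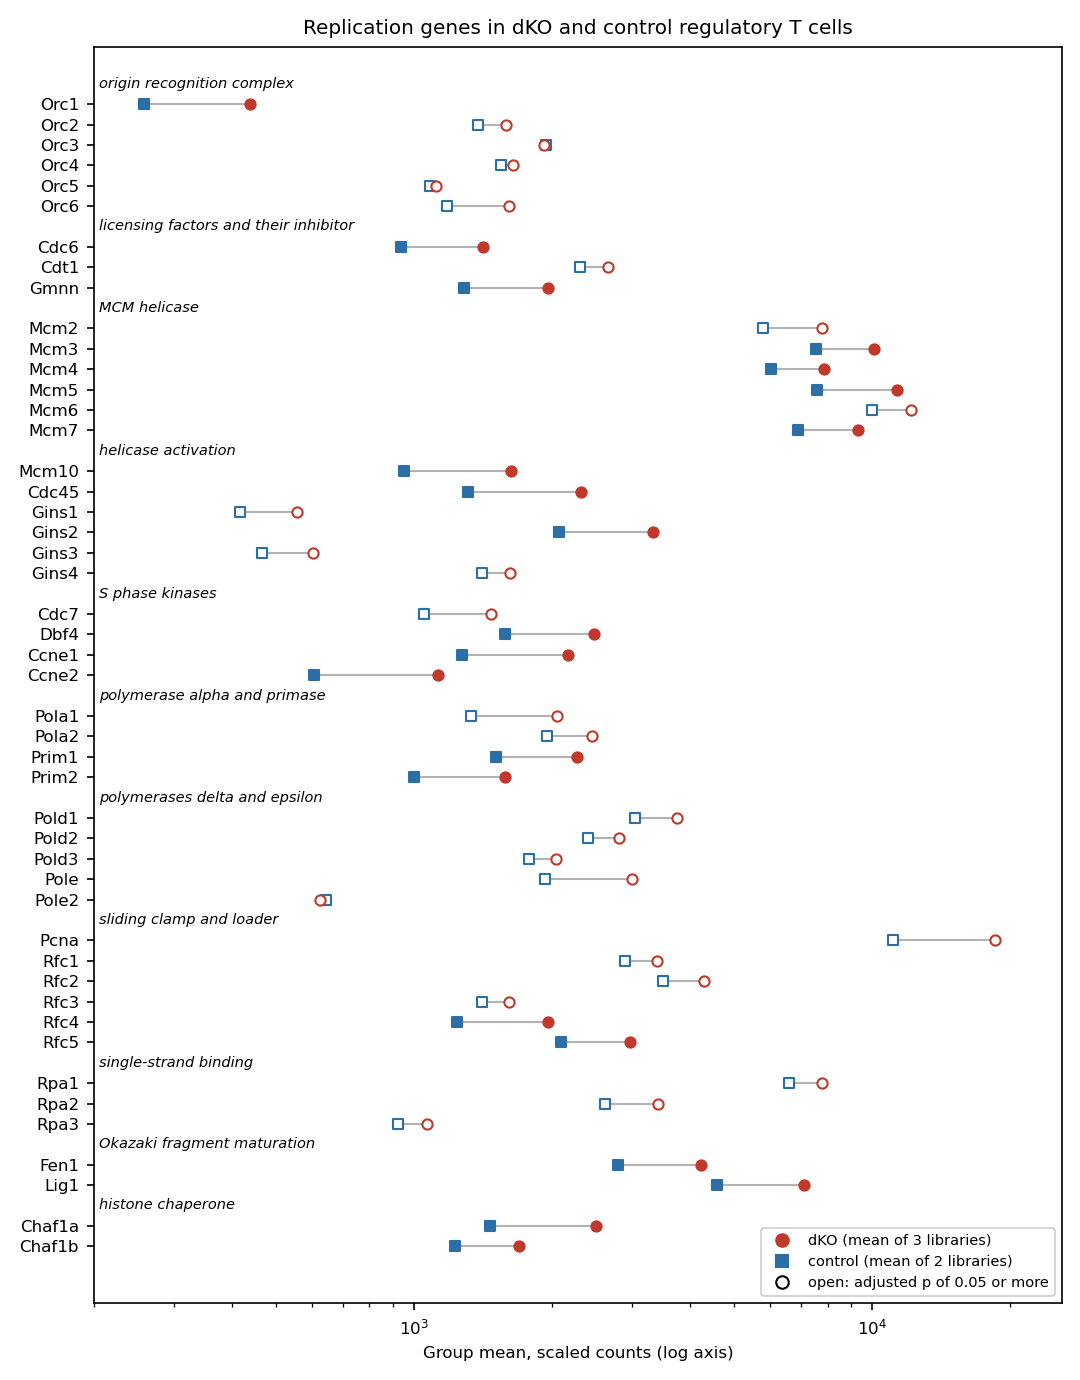
Scaled counts (log scale, horizontal axis) of the 47 genes in dKO and in control as the authors' group means, grouped by role, with filled marks for the genes that passed. The dKO mark lies right of the control mark for 45 genes, and left of it for Orc3 and Pole2.

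The spread between the 2 control libraries was small for most of the 30 genes for which it could be recovered. For 25 of these genes only reads within a 2-fold difference were accepted, so a wider spread could not show. The median size of the log2 difference between the control libraries was 0.09, and the highest was 0.39 (Chaf1b). For 27 of the 30 genes the log2 ratio of dKO over control was larger in size than the log2 difference between control libraries. The dKO mean lay above both control libraries for 28, between them for Orc3 and below both for Pole2. Among all 5626 genes with a mean of at least 250 and recovered control reads, the dKO mean lay above both control libraries in 41% and below both in 40.6%, and the ratio was the larger one in 65.8%. Against the deeper control library alone the ratio of Dbf4 was 0.48 and that of Gins1 0.58, and against the other library alone they were 0.83 and 0.26. The 17 genes without recovered reads include the MCM subunits and Pcna, so the spread of the genes with the most reads is not shown.

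**Figure D4:**
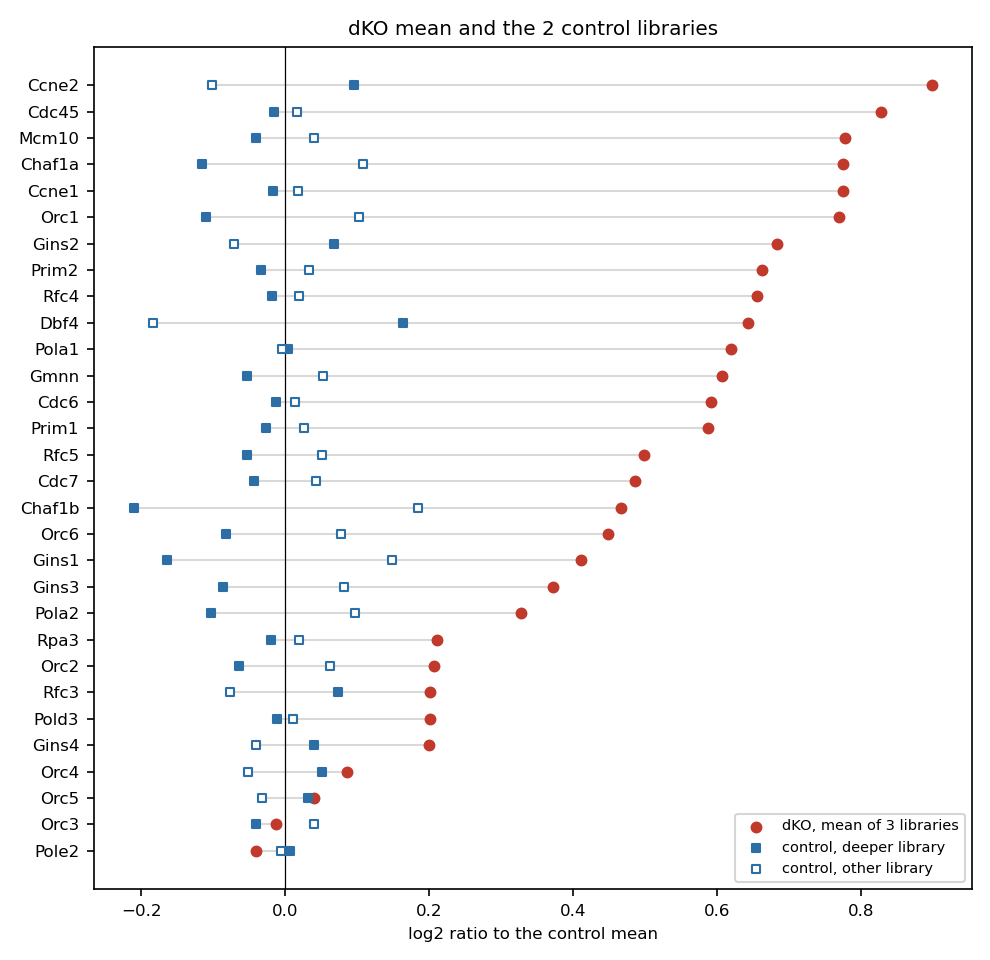
Log2 ratio to the mean of the control group (horizontal axis) for the dKO group mean (circles) and for each of the 2 control libraries (squares, filled for the deeper one) in the 30 genes whose control reads could be recovered. The circle lies right of both squares for 28 genes, between them for Orc3 and left of both for Pole2.

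The unnumbered pair had 1 library a group, so the conditions could not be tested in it. It went in the same direction for most of the genes if its titles are right, and in the opposite one if its genotype tags are. By titles, 11 of the 47 genes were 1.5-fold or more higher in the library labelled dKO and 0 were 1.5-fold or more lower; by tags, 0 were higher and 11 lower. Among the 8679 genes with at least 5 FPKM, 8.05% were that much higher and 9.34% that much lower. The log2 ratio, on the log2(FPKM + 1) scale, was above 0 for 43 of 47 genes, against 50.9% of the 8679, with a median of 0.40 against 0.01. By tags, 4 of 47 would be above 0 and the median would be -0.40. The values that follow go by titles. Orc1 had the highest ratio, with 5.24 FPKM in the library labelled dKO and 2.20 in the library labelled control (log2 0.96). Dbf4 followed with 31.8 FPKM in the library labelled dKO and 16.4 in the library labelled control (log2 0.92). Rpa2, which missed the threshold in the replicated table, had 91.6 FPKM in the library labelled dKO and 50.1 in the library labelled control (log2 0.86). Pole2 was lowest, with 11.3 FPKM in the library labelled dKO and 14.3 in the library labelled control (log2 -0.32), and was the only 1 of the 47 genes below 0 in both comparisons. The other 3 genes below 0 in the pair were Rfc2 (-0.17), Pold1 (-0.12) and Pold3 (-0.01). All 21 genes that rose in the replicated comparison were above 0 in the pair, with a median of 0.50. So were 22 of the 26 that did not pass, with a median of 0.25. Lowest of the 21 was Gins2, with 34.0 FPKM in the library labelled dKO and 32.7 in the library labelled control (log2 0.06). Across the 47 genes the ratios of the 2 comparisons had a Pearson r of 0.48 and a Spearman rho of 0.45, and within the 21 genes that rose r was 0.08. By tags, 0 of the 21 and 4 of the 26 would be above 0, with an r of -0.48 and a rho of -0.45 across the 47 genes. Genes within a library are not independent, and the comparisons share no library. By FPKM, a level per length, Mcm6 was highest with 135 in the library labelled dKO and 109 in the library labelled control, followed by Mcm3 and Mcm5, and Orc1 was lowest.

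**Figure D5:**
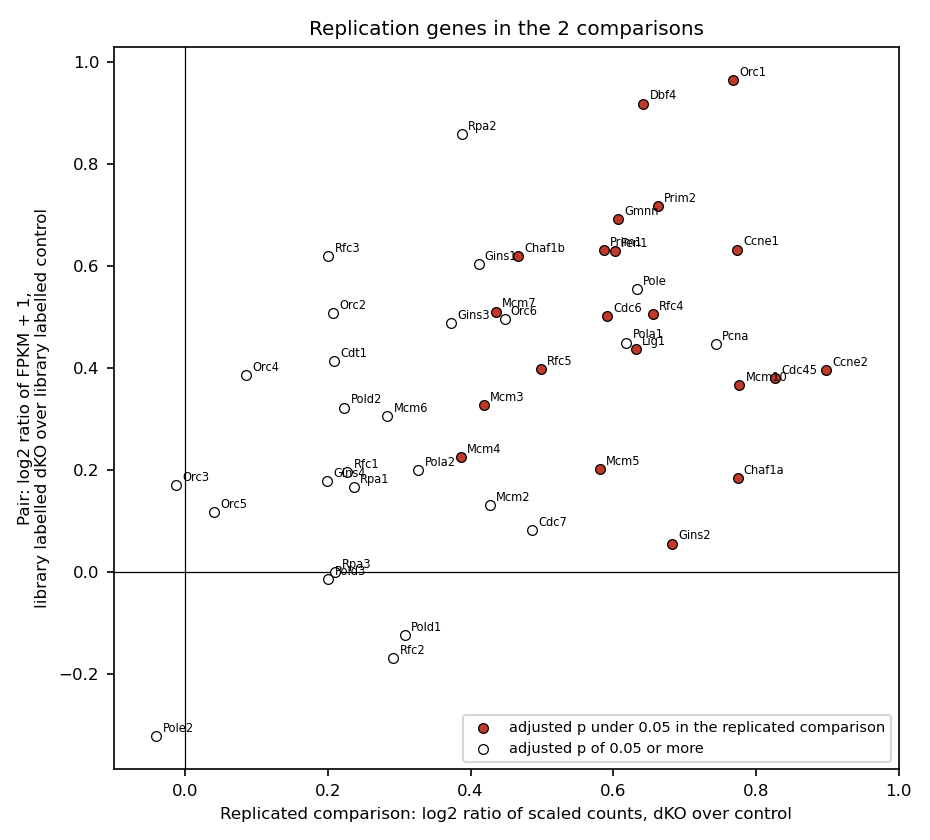
Log2 ratio in the unnumbered pair (library labelled dKO over library labelled control, log2(FPKM + 1) scale, vertical axis) against the log2 ratio of dKO over control in the replicated comparison (horizontal axis) for the 47 genes, coloured by whether they passed. Most genes, 42 of 47, lie in the upper right, and Pole2 lies below 0 on both axes; the vertical axis goes by titles and would be turned over by the genotype tags.

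A list of 48 other replication genes was set beside the 47. At an adjusted p under 0.05 in the authors' deposited table, 12 of these (25%) rose, none fell and 36 did not pass. Among the 9676 genes with a mean of at least 250, 8.09% were called higher and 6.87% lower by that rule. At an unadjusted p under 0.05 there were 24 higher and 0 lower (15.4% and 14.2% of the 9676 genes). The log2 ratio was above 0 for 40 of 48, against 51.6% of the 9676 genes, and the median log2 ratio was 0.36. The gene of the PCNA-associated factor Pclaf, listed as 2810417H13Rik, had 7781 scaled counts in dKO and 3703 in control (log2 1.07, adjusted p 6.09e-09 in the authors' deposited table). Ccna2, cyclin A of S phase and mitosis, had 8015 in dKO and 4051 in control (log2 0.98, adjusted p 5.74e-06 in the authors' deposited table). Asf1b, a histone chaperone, had 5704 in dKO and 3057 in control (log2 0.90, adjusted p 3.09e-05 in the authors' deposited table). Chtf18, part of an alternative clamp loader, had 1244 in dKO and 731 in control (log2 0.77, adjusted p 0.0001 in the authors' deposited table). Dna2, a nuclease and helicase of lagging-strand processing, had 964 in dKO and 588 in control (log2 0.71, adjusted p 0.0001 in the authors' deposited table). Dnmt1, which copies DNA methylation to the new strand, had 13505 in dKO and 9025 in control (log2 0.58, adjusted p 0.0004 in the authors' deposited table). In the pair, by titles, 36 of the 48 were above 0, against 50.9% of the 8679 genes with at least 5 FPKM, with a median of 0.28.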

How the data were processed

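Messenger RNA of sorted regulatory T cells was sequenced in 7 libraries. The authors deposited, for 3 dKO and 2 control libraries, a table of 39179 Ensembl genes (GRCm38) whose signal columns are group means, called raw counts per the file headers. They are fractional, with steps like those of reads divided by a size factor in each library, and are called scaled counts here. Their log2 ratios and raw and adjusted p-values were deposited with it, made with RSEM and DESeq per the submitters' processing notes. For the unnumbered pair, FPKM, p-values and q-values were deposited, per the file headers by Cuffdiff (version 0.0.6, TopHat 1.4.0, mm9, per the submitters' processing notes).

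Tests on counts per library had been planned, but the table holds means, so the authors' DESeq test was used as deposited, Benjamini-Hochberg adjusted over all genes, with an adjusted p under 0.05. Scaled counts summed to 3.99e+07 in dKO and 3.90e+07 in control, over 2 or 3 libraries whose own totals the means do not give. Reads per control library were recovered as the whole numbers that, divided by size factors of 1.29 and 1.09 fitted to low genes, give the deposited mean, where only 1 solution existed or, up to a mean of 2500, only 1 within a 2-fold difference (5 and 25 genes). Of 2255 genes with 1 solution and a mean of 200 to 700, 1.95% were over 2-fold apart, so a recovered pair can be wrong for a few genes. The recovery was tested on simulated data, where it failed with size factors that were simple ratios of each other and was refined before it passed with others. FPKM was summed over a gene's entries, with a pseudocount of 1, which understates the change of low genes. Shared sequence was found with BLAST 2.17.0 (over 90% identity, 300 bases or more, a length raised after hits were seen). Promoter strings were searched in Python 3.11.15. No source used here says whether reads were counted by strand, and 17 of the 47 genes overlap another gene. Intervals are not given, since the means hold no spread.

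The 47 genes, the 48 others and their roles were chosen with earlier results of these data known. All 47 are named: up to 3 per role with the smallest adjusted p, and all that did not pass, have full values. Of the others, the 6 with the smallest adjusted p are named. A further cell type marker is not reported here.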

Additional observations from a re-analysis of the deposited data

How the results depend on the processing

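All counts and medians kept their direction under the alternatives tried, except in the pair grouped by its genotype tags, an alternative chosen after seeing the data. There the median was -0.40 and 0 of the 47 genes were 1.5-fold or more higher. Without genes marked as overlapping another, 11 of the 30 genes left and 5 of the 21 other replication genes left were called higher. No share of all genes is given at this setting, so these counts have no background beside them. At an unadjusted p under 0.05, chosen after seeing the data, 32 and 24 were called higher. The median log2 ratio of the 47 genes was 0.40 with group means rescaled to equal sums, 0.40 without the overlapping genes, and 0.49 over the 30 genes with recovered control reads, also chosen after seeing the data. Over the same 30 genes, the median against 1 control library alone ranged from 0.45 to 0.56. In the pair, 5 genes were 1.5-fold or more higher with a pseudocount of 5 FPKM, a count with no share of all genes beside it. The median was 0.31 with that pseudocount, 0.41 with 0.1 FPKM and 0.39 relative to all genes.

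The counts at an adjusted p under 0.01 or 0.1, with low genes removed before adjustment, or with 1.5-fold required ran from 15 to 23 for the 47 genes. They too have no share of all genes beside them. No paired analysis was possible because the replicated table holds group means and the pair has no replicate number. DESeq2, other size factors and leaving out a dKO library were not run for the same reason. With 2 control libraries, the ratio of Chaf1b was 0.28 against 1 of them alone and 0.68 against the other, and a p that misses the threshold does not show that levels were equal.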

Other observations

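In the pair, several of the 47 genes have more than 1 transcript entry, and entries of 1 gene did not always point the same way. For Orc3, 1 entry had 10.8 FPKM in the library labelled dKO and 2.88 in the library labelled control, and the other had 0.00106 FPKM in the library labelled dKO and 6.65 in the library labelled control. For Orc6, 1 entry had 11.4 FPKM in the library labelled dKO and 0.0867 in the library labelled control, and the main entry had 18.5 in the library labelled dKO and 21.4 in the library labelled control. For Cdc45, the entries had 21.3 and 7.19 FPKM in the library labelled dKO, against 13.6 and 8.11 in the library labelled control. The smallest q of any entry of the 47 genes was 0.601 in the authors' deposited table, a test of these 2 libraries and not of the conditions.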
